A study of Mus musculus with 16 samples.

Results

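Glycolysis and hypoxia response genes were followed in 16 mouse osteosarcomas as a module of 37 gene symbols, chosen by name for their place in the pathway. The names matched 38 of the 25054 rows of the count table, since *Aldoa* had a pair of rows with different identifiers. All 38 rows passed the filter on low counts, together with 15413 genes in all, so no member was lost. The larger *Aldoa* row (ENSMUSG00000030695) is called *Aldoa* here, and the other (ENSMUSG00000114515) is named by its identifier.

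Bulk RNA sequencing compared 8 tumors from mice with floxed *Arid1a*, called KO, with 8 tumors from mice without that allele, called WT. Every mouse carried OsxCreERT2+/-, p53 fl/fl and Rb1 fl/fl, so that the Osterix promoter drives a tamoxifen-dependent Cre in cells of the osteoblast lineage in both groups. Tamoxifen was given at 400 µg/g to mice of 1 month, and tumors came from mice of both sexes older than 6 months. The KO tumors were named Massa, Medusa, Montana, Ohio, Prince, Grilka, Zelda and Oregon and came from 8 mice, with no body site in the labels. The WT tumors came from 4 mice. Mouse N42 gave 4 of them (right pelvis, right femur, left limb and left shoulder), N43 gave 2 (spine and pelvis), N215 gave 1 from the right hind limb and N25 gave 1 from the lung. Tumors of the same mouse are not independent, and the p-values below treat them as separate samples unless the text says otherwise.

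Glycolysis converts glucose to pyruvate, and lactate dehydrogenase turns pyruvate into lactate when oxygen is short or demand is high. In low oxygen the prolyl hydroxylases of the EGLN family no longer mark HIF alpha subunits for destruction, and the stabilized factors bind the core letters ACGTG or GCGTG near many of the genes in this module. Skeletal muscle is also rich in glycolytic enzymes and uses isoenzymes of its own for several steps, so that muscle around a bone tumor can bring the same enzymes into a bulk sample.

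Total counts ranged from 1109487 to 15059640 in KO and from 7806160 to 16962329 in WT. The shallow libraries were Massa and Grilka, where 3 counts correspond to 6.69 and 4.03 library-scaled counts (CPM), against 0.146 to 0.839 CPM in the others. *Arid1a*, counted over the whole gene, had 107 to 270 CPM in KO and 125 to 236 CPM in WT (log2 fold change 0.16, SE 0.22, adjusted p = 0.715 by edgeR). Which part of the gene is floxed is not given in the sources used here, and a count over the whole gene does not check the labels. All 12 osteoblast markers were above 1 CPM in most tumors, but their share of the counts was 0.0575% to 3.87% in KO and 0.387% to 10.1% in WT. Markers of other tissues stood out in single tumors. Genes of skeletal muscle took 21.2% of the counts in Montana and 19.9% in Oregon, against at most 3.86% in any other tumor. Of 10 macrophage markers 7 fell in KO at an adjusted p under 0.05 by edgeR, against 2.15% of all tested genes. That test takes tumors of the same mouse as separate samples. Salivary gland genes took 9.32% in Prince, lung genes 0.451% in Massa and 3.52% in the N25 lung tumor, liver genes 0.228% in Zelda, and abundant structural RNAs up to 23.8% in KO but at most 1.94% in WT. In such bulk samples, fewer cells of a type and less RNA per cell cannot be told apart.

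The sequence just before the transcription start was examined for the core letters that HIF factors bind. RefSeq windows (GRCm38.p6) of 250 bases were at hand for 33 of the 37 symbols, and ACGTG or GCGTG stood on either strand in 30 of them (90.9%). The same letters were found in 41.5% of all genes with a window and in 60.4% of the genes that were both tested and matched. The members without a match were *Eno2*, *Gpi1* and *Tpi1*, and no match says only that these letters are missing from this window. A match is a description of the letters and not of a bound site. The windows below are those of the member that passed the test between genotypes (*Ddit4*), of *Egln1*, and of 4 members that passed the test against muscle content (*Hk2*, *Pgk1*, *Bnip3*, *Egln3*). Capitals mark ACGTG or GCGTG or their reverse complements, and bases inside the annotated gene were left out.
*Ddit4*, chr10:59951835-59952020, minus strand: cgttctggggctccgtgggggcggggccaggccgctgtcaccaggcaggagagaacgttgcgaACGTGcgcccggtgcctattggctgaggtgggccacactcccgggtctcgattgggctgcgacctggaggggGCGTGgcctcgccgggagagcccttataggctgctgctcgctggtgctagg
*Egln1*, chr8:124949325-124949504, minus strand: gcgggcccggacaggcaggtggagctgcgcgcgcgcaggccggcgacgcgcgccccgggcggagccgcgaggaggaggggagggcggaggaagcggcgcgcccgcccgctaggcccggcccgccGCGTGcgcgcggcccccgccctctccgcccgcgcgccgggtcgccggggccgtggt
*Hk2*, chr6:82774455-82774704, minus strand: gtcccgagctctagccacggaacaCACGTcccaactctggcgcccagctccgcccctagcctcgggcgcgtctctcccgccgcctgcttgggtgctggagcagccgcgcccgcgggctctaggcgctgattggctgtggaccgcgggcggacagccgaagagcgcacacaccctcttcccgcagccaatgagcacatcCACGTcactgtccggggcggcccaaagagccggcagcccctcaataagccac
*Pgk1*, chrX:106186850-106187099, plus strand: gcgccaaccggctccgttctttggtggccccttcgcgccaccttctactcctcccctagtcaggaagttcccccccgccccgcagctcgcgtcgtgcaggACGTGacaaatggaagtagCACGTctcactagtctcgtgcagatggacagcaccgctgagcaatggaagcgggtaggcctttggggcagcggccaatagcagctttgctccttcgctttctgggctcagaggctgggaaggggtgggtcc
*Bnip3*, chr7:138909520-138909756, minus strand: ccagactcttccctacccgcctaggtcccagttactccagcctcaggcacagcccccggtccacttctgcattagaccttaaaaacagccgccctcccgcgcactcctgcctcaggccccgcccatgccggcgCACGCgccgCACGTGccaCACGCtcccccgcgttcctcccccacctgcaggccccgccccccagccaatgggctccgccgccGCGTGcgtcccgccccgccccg
*Egln3*, chr12:54203875-54204124, minus strand: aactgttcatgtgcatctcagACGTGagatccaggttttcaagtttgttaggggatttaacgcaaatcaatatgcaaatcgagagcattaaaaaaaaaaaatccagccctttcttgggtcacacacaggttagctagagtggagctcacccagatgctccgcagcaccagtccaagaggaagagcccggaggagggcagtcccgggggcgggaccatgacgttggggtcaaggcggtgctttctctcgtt

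Distances were counted to the RefSeq start, which lies past the end of the printed *Ddit4*, *Egln1* and *Bnip3* sequences because bases inside the annotated gene were left out. In *Ddit4* the letters began 187 and 115 bases before the start, in *Hk2* 226 and 52, and in *Pgk1* 150 and 131. *Egln3* had 1 match, 229 bases before its start. *Egln1* had them 126 and 68 bases before the start, the nearer match falling in the bases left out of the printed sequence. *Bnip3*, which encodes a mitochondrial protein of mitophagy, had 5 overlapping or separate matches, from 117 to 35 bases before the start. Of the 12 members that passed the muscle test 10 had a match, against 20 of the 21 others with a window.

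Levels between genes were compared as CPM per kilobase of exon. Averaged over the 16 tumors, *Aldoa* (aldolase) was highest at 645 CPM per kb, then *Gapdh* at 181, *Pkm* (pyruvate kinase) at 131, the HIF alpha gene *Epas1* at 89.3 and *Ldha* at 83.3. The lowest was *Aldoc*, the aldolase typical of brain, at 0.654. The order of the highest members depended on few tumors. By median, *Aldoa* had 95.5 CPM per kb in KO and 127 in WT, while *Pkm* had 95.2 and 99.3, so these enzymes lay close together in a typical tumor. In WT the highest median belonged to *Ddit4*, at 156 CPM per kb.

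**Figure D1:**
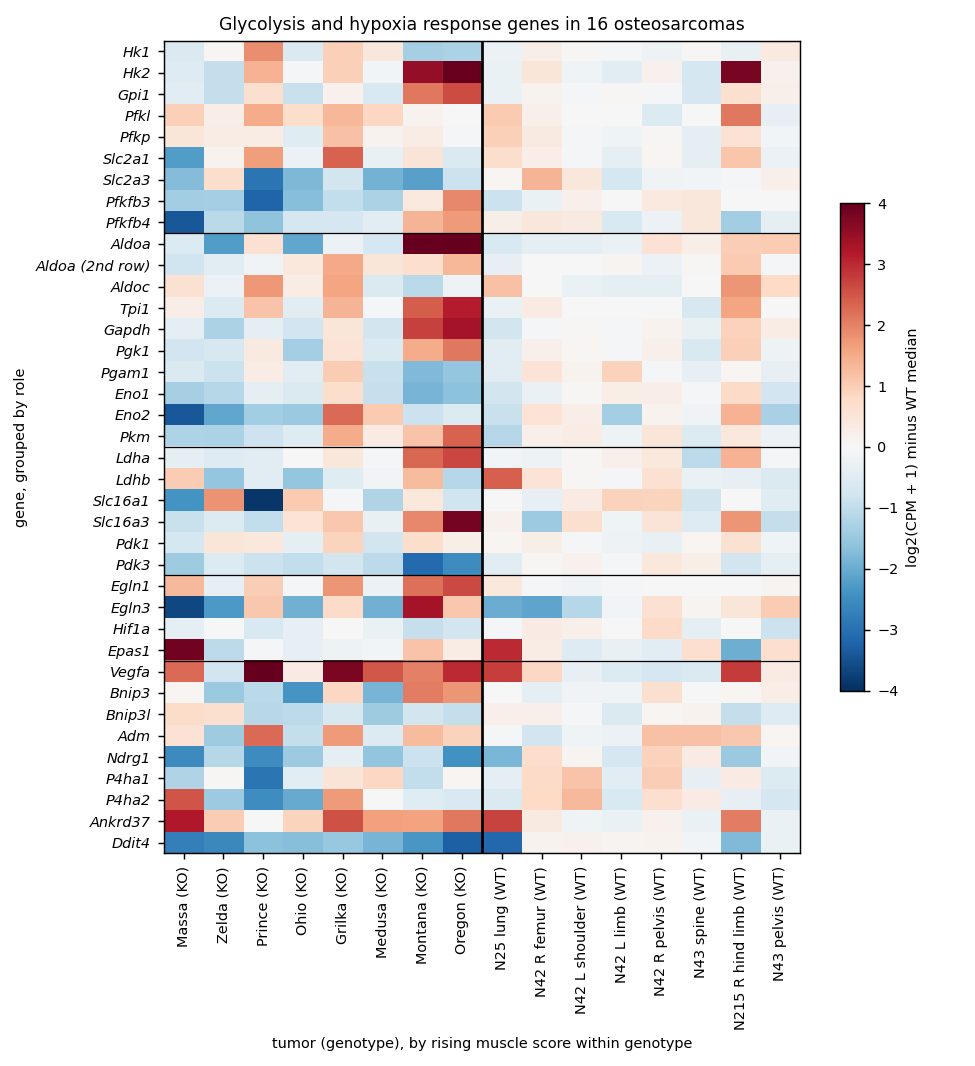
Each row is a member, grouped from top to bottom as glucose uptake and early steps, lower glycolysis, pyruvate and lactate, oxygen sensing, and hypoxia targets, and each column a tumor, with KO left and WT right of the line. Color gives log2(CPM + 1) minus the WT median, cut at 4 in each direction. Montana and Oregon are dark red for *Aldoa*, *Gapdh* and *Hk2*, and *Ddit4* is below the WT median in all 8 KO tumors and far below it in N25 and N215.

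The comparison of genotypes asked whether loss of *Arid1a* went with a change in this module. Only *Ddit4* passed the threshold, an adjusted p of 0.05 in edgeR's quasi-likelihood test over all genes, and it fell in KO. That is 1 of 38 rows (2.63%), against 4.01% of all tested genes (287 higher, 1.86%, and 331 lower, 2.15%). At an unadjusted p under 0.05 there were 8 members, against 23% of all genes. The fold change was above 0 for 26 members and below 0 for 12, with a median log2 fold change of 0.31 beside 0.10 over all genes tested. For no member did the ranges of the groups stay apart, which they did for 0.415% of all genes.

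*Ddit4* encodes an inhibitor of the growth kinase complex mTORC1 and is induced by hypoxia and by other stresses. In KO its lowest, median and highest values were 27.4, 63.9 and 95.3 CPM, and in WT 30.1, 274 and 306 CPM. Every KO tumor lay below the WT median, but the WT group was split by mouse. The 4 tumors of N42 had 297 to 306 CPM and those of N43 251 and 228 CPM, while the hind limb tumor of N215 had 78.9 and the lung tumor of N25 30.1 CPM, both inside the KO range. These WT tumors also had the lowest osteoblast shares of their group (0.387% in N25 and 0.548% in N215), and the part of this content in the *Ddit4* values was not tested. The log2 fold change was -1.83 (SE 0.41, adjusted p = 0.0219). It kept its direction in all 28 alternative analyses and its call in 22. The structural RNA share, a covariate in this and later fits, had a median of 6.69% in KO and 0.163% in WT. That covariate therefore overlaps with genotype, and such a fit cannot fully tell them apart. The call was lost without N42 (-1.19, adjusted p = 0.586), with counts summed per mouse (-1.31, adjusted p = 0.568), with the mouse as a random effect in limma-voom (-1.05, adjusted p = 0.563), with structural RNA as a covariate (-1.53, adjusted p = 0.546), without Montana and Oregon (-1.68, adjusted p = 0.0604) and without the left shoulder tumor of N42 (-1.76, adjusted p = 0.0510).

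**Figure D2:**
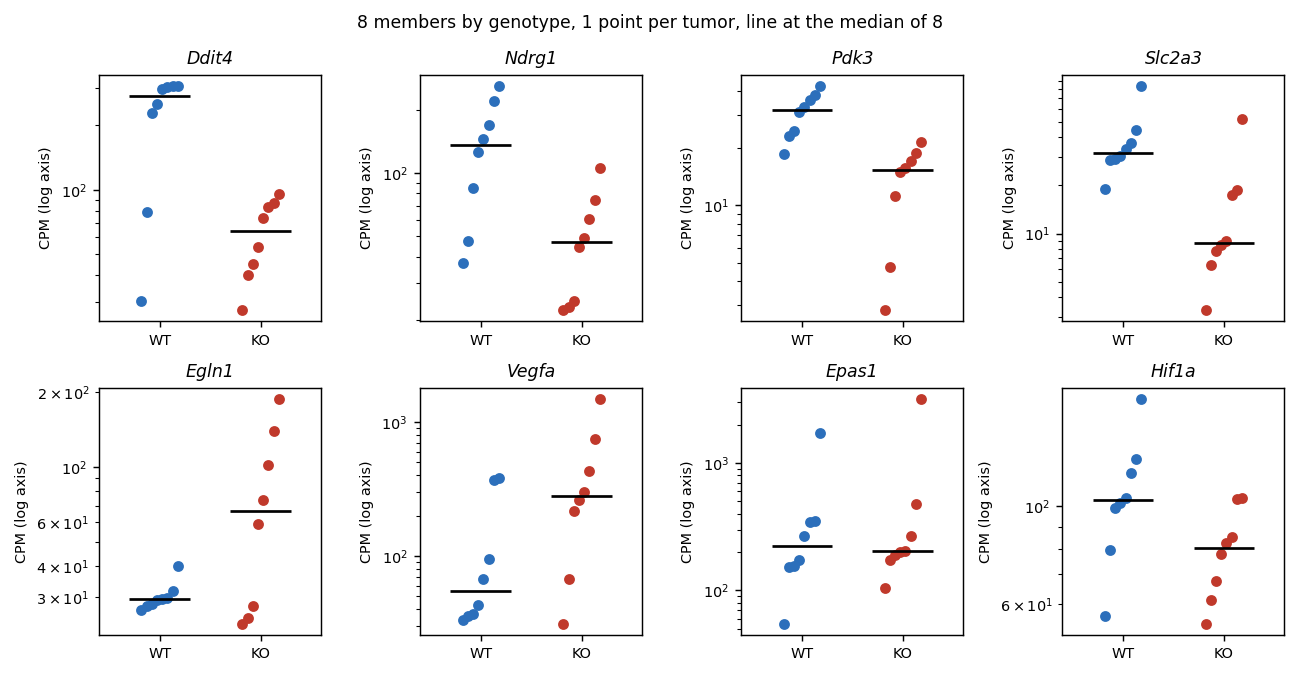
CPM on log axes of 8 members, with 1 point for each of the 8 WT (blue) and 8 KO (red) tumors and a line at the group median. *Ddit4* medians are 274 in WT and 63.9 in KO, with 2 WT tumors inside the KO range, and *Epas1* has single high tumors in both groups.

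Among the genes of oxygen sensing, *Egln1* encodes the main prolyl hydroxylase that marks HIF alpha. It ranged from 23.5 through a median of 66.3 to 188 CPM in KO, and from 26.5 through 29.4 to 39.8 CPM in WT. The WT values were nearly level, whereas 5 KO tumors stood above every WT tumor and 3 lay below the WT median. The log2 fold change of 1.39 (SE 0.40) did not pass (adjusted p = 0.0555). Without Montana and Oregon, the tumors with most muscle and the highest *Egln1* values, it was 0.73 (adjusted p = 0.226), and with the muscle score as a covariate it was 1.31 and passed (adjusted p = 0.0338). It passed in 5 of 28 alternatives.

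*Hif1a*, the alpha subunit of HIF-1, had 54.1, 80.3 and 105 CPM in KO as lowest, median and highest value, and 56.2, 103 and 176 CPM in WT. Tumors of N42 supplied the 3 WT values above every KO tumor, and 2 KO tumors exceeded the WT median. The log2 fold change was -0.44 (SE 0.23, adjusted p = 0.259). *Epas1*, which encodes HIF-2 alpha and is abundant in lung and vessel cells, had 105, 203 and 3169.5 CPM in KO and 55.02, 222 and 1707 CPM in WT. Its log2 fold change of 0.57 (SE 0.78, adjusted p = 0.707) was -0.80 without Massa and 1.48 without N25, so that its size and direction depended on single tumors. *Egln3*, a prolyl hydroxylase that HIF itself induces, was listed at 0 in Massa, where 3 counts are worth 6.69 CPM, and reached 123 CPM in Montana.

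Among the hypoxia targets other than *Ddit4*, *Ndrg1*, a stress gene of differentiating cells, had 22.3, 46.9 and 106 CPM in KO and 37.4, 136 and 260 CPM in WT. All 8 KO values lay below the WT median, and N25 and N215 were again the lowest of the WT tumors. At a log2 fold change of -1.43 (SE 0.43, adjusted p = 0.0636) it did not pass, though it did in 6 of 28 alternatives. *Vegfa*, the chief growth factor of blood vessels, had 31.2, 282 and 1489 CPM in KO and 33.3, 54.95 and 382 CPM in WT. Here 7 KO tumors lay above the WT median and 3 of them above every WT tumor, but N215 and N25, at 382 and 370 CPM, exceeded 5 of the KO tumors. Its log2 fold change was 1.74 (SE 0.75, adjusted p = 0.176), which passed in none of the 28 alternatives and was 0.13 with structural RNA as a covariate. The collagen prolyl hydroxylases *P4ha1* and *P4ha2*, the mitophagy genes *Bnip3* and *Bnip3l*, the vasoactive peptide gene *Adm* and *Ankrd37* had adjusted p-values of 0.4997 to 0.839.

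Of the genes for glucose uptake and the early steps, *Slc2a3* (the glucose transporter GLUT3) had 3.32, 8.71 and 52.2 CPM in KO and 19.1, 32.0 and 83.7 CPM in WT. In KO, 7 tumors lay below every WT tumor, while Zelda, the highest, exceeded 7 WT tumors. Grilka was only just below, at 18.8 CPM from 14 counts against a lowest WT value of 19.1 CPM, and Massa had 4 counts. The log2 fold change was -1.29 (SE 0.48, adjusted p = 0.123) and passed when Zelda was left out (-1.96, adjusted p = 0.00910). *Slc2a1* (GLUT1) had medians of 13.9 CPM in KO and 14.2 CPM in WT, with KO values from 2.23 to 76.5 CPM. Both ends of that range came from the shallow libraries, with 1 count in Massa and 57 in Grilka. The adjusted p-values of *Hk1*, *Hk2*, *Gpi1*, *Pfkl*, *Pfkp*, *Pfkfb3* and *Pfkfb4* by edgeR lay between 0.274 and 0.888. *Hk2* did pass with DESeq2, which replaced its high count in N215 as an outlier. All 8 KO values of *Pfkl* lay above the WT median, the lowest narrowly (20.4 against 20.2 CPM), as did those of *Ankrd37*, also narrowly. The share of all genes with every KO value on the same side of the WT median was not counted.

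In lower glycolysis the highest fold change of the module belonged to *Aldoa*, with 75.5, 278 and 15472 CPM in KO and 236, 369 and 734 CPM in WT. The KO median was below that of WT, and only Montana (9552 CPM) and Oregon (15472 CPM) exceeded the WT range. Its log2 fold change was 2.91 (SE 1.05, adjusted p = 0.111), and -0.84 (adjusted p = 0.317) without those tumors. *Gapdh* had 167, 311 and 4040 CPM in KO and 240, 401 and 760 CPM in WT, with the same tumors on top. Its log2 fold change was 1.31 (SE 0.65, adjusted p = 0.233) and -0.52 without them. *Pkm*, with medians of 476 CPM in KO and 496 CPM in WT, had a log2 fold change of 0.75 (SE 0.51, adjusted p = 0.393), which was 0.24 without Oregon and 0.01 without both tumors. *Eno1*, the widespread enolase, had 48.7, 87.8 and 290 CPM in KO and 105, 179 and 308 CPM in WT. Only Grilka among the KO tumors was above the WT median, and the log2 fold change was -0.70 (SE 0.35, adjusted p = 0.244). *Eno1b*, a near-identical copy, held counts equal to 15.3% of those of *Eno1*, so the split between them is uncertain.

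Among the genes of pyruvate and lactate, *Pdk3*, a kinase that switches off pyruvate dehydrogenase, had 2.81, 15.3 and 21.4 CPM in KO and 18.7, 31.9 and 42.6 CPM in WT. All KO tumors lay below the WT median and only N215, at 18.7 CPM, reached down into the KO range. The log2 fold change was -1.21 (SE 0.36, adjusted p = 0.0618), and with the muscle score as a covariate it was -1.58 (adjusted p = 0.0119). It passed in 3 of 28 alternatives and was -0.88 (adjusted p = 0.691) with structural RNA as a covariate. *Slc16a3*, the lactate exporter MCT4, had 10.5, 24.7 and 318 CPM in KO and 7.27, 21.7 and 75.4 CPM in WT. Its log2 fold change of 1.31 (SE 0.70, adjusted p = 0.269) became -0.32 without Montana and Oregon. *Slc16a1*, *Pdk1*, *Ldha* and *Ldhb* had adjusted p-values of 0.335 to 0.994.

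Other genes of the pathway were read from 4 further lists. Of 47 other hypoxia targets tested, 3 fell in KO and none rose, against 4.01% of all genes called (2.15% lower), with 21 fold changes above 0 and 26 below. *Loxl2*, an enzyme that crosslinks collagen, had 6.69, 10.6 and 41.6 CPM in KO and 32.5, 117 and 258 CPM in WT (log2 fold change -2.85, SE 0.54, adjusted p = 0.0112). *Plod1*, a collagen lysyl hydroxylase, had medians of 38.5 and 136 CPM (log2 fold change -1.61, SE 0.36, adjusted p = 0.0194), and *Angptl4*, a regulator of lipoprotein lipase, of 6.45 and 63.9 CPM (log2 fold change -2.70, SE 0.65, adjusted p = 0.0292). These calls were lost for all 3 genes with counts summed per mouse (adjusted p = 0.242, 0.513 and 0.424), with the mouse as a random effect (0.420, 0.408 and 0.250), without N42 (0.3005, 0.488 and 0.398) and with structural RNA as a covariate (0.375, 0.373 and 0.490). *Loxl2* and *Plod1* passed in 24 of 28 alternatives and *Angptl4* in 16. The osteoblast markers, which share the collagen matrix with *Loxl2* and *Plod1*, had a median log2 fold change of -1.06, and the part of osteoblast content in these differences was not tested. *Bhlhe40*, a repressor induced by hypoxia, had medians of 96.4 CPM in KO and 76.7 CPM in WT and a log2 fold change of 0.07 (SE 0.42, adjusted p = 0.941). Of 17 genes of the oxygen sensing machinery, 4 of them members, none passed by edgeR, and 1 had an unadjusted p under 0.05. The largest fold changes outside the members there were those of *Hif1an*, the asparagine hydroxylase of HIF alpha (0.98, SE 0.47, adjusted p = 0.223), and *Arnt2* (0.74, SE 0.71, adjusted p = 0.570). *Arnt2* ran from 0.17 without Medusa to 1.54 without N215, and *Hif1an* was -0.014 without Montana and Oregon. Of 27 other genes of glycolysis, none passed by edgeR, and 12 had an unadjusted p under 0.05, against 23% of all genes. The largest fold changes there were those of the muscle isoenzymes *Pgam2* (3.995, SE 1.78, adjusted p = 0.189) and *Eno3* (3.75, SE 1.39, adjusted p = 0.118). None of 9 muscle-type isoforms passed by edgeR either, although all 9 had an unadjusted p under 0.05, for which the share over all genes is the same 23%. They were led by the glycogen breakdown genes *Phkg1* (4.73, SE 1.54, adjusted p = 0.0828) and *Pygm* (4.04, SE 1.59, adjusted p = 0.141). Without Montana and Oregon the fold changes of these 4 genes were -4.39, -1.57, -0.71 and -3.01, in the order named.

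Because muscle content differed between tumors, each gene was then tested for a slope on a muscle score, with genotype in the model. The score is the mean log2 CPM of 16 muscle genes outside the module, of contraction and calcium handling except for the creatine kinase *Ckm*. It was 12.3 in Montana and 12.8 in Oregon, -1.56 to 4.50 in the other KO tumors, and 0.00675 to 9.12 in WT. All slopes below are log2 CPM per unit of this score. A positive slope passed the threshold for 12 of 38 members (31.6%), against 3.3% of all genes, and a negative one for no member, against 1.62% (4.92% in either direction).

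The members that rose with the score covered most of the glycolytic chain. They were the hexokinase *Hk2* (slope 0.27, SE 0.06, adjusted p = 0.0183), the isomerase *Gpi1* (0.16, SE 0.04, adjusted p = 0.0142), *Aldoa* (0.36, SE 0.06, adjusted p = 0.00149), the triosephosphate isomerase *Tpi1* (0.16, SE 0.04, adjusted p = 0.0257), *Gapdh* (0.24, SE 0.04, adjusted p = 0.000476) and the phosphoglycerate kinase *Pgk1* (0.14, SE 0.03, adjusted p = 0.0284). Further on were *Pkm* (0.18, SE 0.04, adjusted p = 0.0154), *Ldha* (0.18, SE 0.03, adjusted p = 0.00208) and *Slc16a3* (0.24, SE 0.05, adjusted p = 0.00594). The others were the regulator *Pfkfb3* (0.21, SE 0.03, adjusted p = 0.00110) and the hypoxia genes *Bnip3* (0.17, SE 0.04, adjusted p = 0.0403) and *Egln3* (0.27, SE 0.07, adjusted p = 0.0419). By role, 3 of 9 members of uptake and early steps, 5 of 9 of lower glycolysis, 2 of 6 of pyruvate and lactate, 1 of 4 of oxygen sensing and 1 of 9 hypoxia targets passed.

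The most negative slopes did not pass. They were those of *Epas1* (-0.16, SE 0.07, adjusted p = 0.205), *Pdk3* (-0.12, SE 0.04, adjusted p = 0.128), *Aldoc* (-0.11, SE 0.09, adjusted p = 0.574), *Hk1* (-0.11, SE 0.05, adjusted p = 0.219) and *P4ha2* (-0.10, SE 0.08, adjusted p = 0.547). Single tumors moved all of them. Without Massa the slope of *Epas1* was -0.035 and that of *P4ha2* 0.023, without Prince *Hk1* was at -0.058 and *Aldoc* at -0.050, and *Pdk3* was at -0.072 without Montana but passed without N25 (-0.15, adjusted p = 0.0458). *Hk1*, *Pgam1*, *Eno1* and *Pdk3* shared a pattern of another kind, with Montana and Oregon as the lowest of all 16 tumors. How many genes outside the module share it was not counted. *Hk1* had 20.9 and 21.8 CPM there, against 35.7 to 200 CPM in the other 14 tumors, and *Pgam1* had 6.38 and 7.55 CPM against 12.5 to 49.7 CPM.

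**Figure D3:**
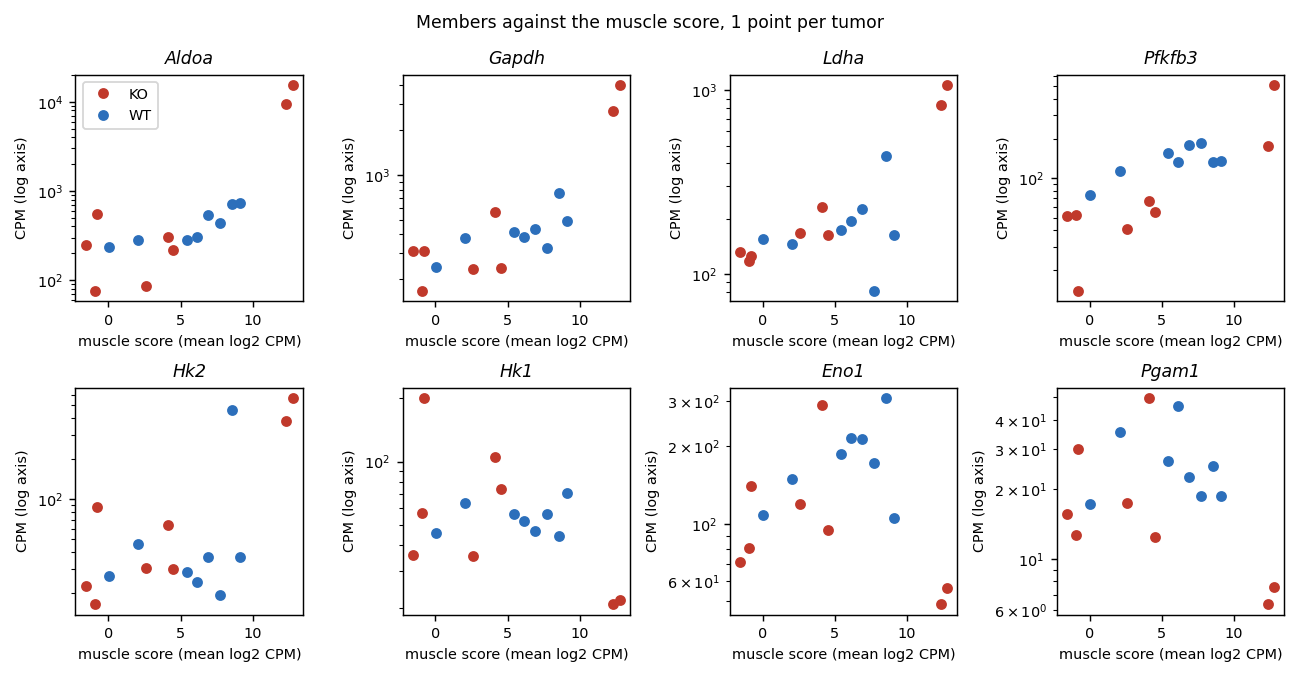
CPM (log axis) of 8 members against the muscle score (mean log2 CPM of 16 muscle genes), with 1 point per tumor, KO red and WT blue. *Aldoa* reaches 9552 and 15472 CPM in the KO tumors with scores of 12.3 and 12.8, while *Hk1*, *Eno1* and *Pgam1* are lowest in the same tumors.

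The slopes depended on Montana and Oregon. Those tumors were the highest of all for 11 members, 9 of them among the 12 that passed. The 12 were called with these same tumors in the fit, and the share of all genes highest in them was not counted. Without them no member passed by edgeR, and 150 genes in all passed. At an unadjusted p under 0.05 there were 5 members, a count with no share over all genes beside it and so not read further. Leaving out Oregon alone gave 4 members and 358 genes in all, and Montana alone 6 members and 421 of 15936 genes. The call of *Egln3* was the least steady, passing in 5 of 23 alternatives. Within the KO tumors 6 members passed (*Hk2*, *Aldoa*, *Gapdh*, *Ldha*, *Slc16a3* and *Pfkfb3*), and within the WT tumors none passed by edgeR. The numbers of all genes called within each genotype are given in the last section. In WT 5 members had an unadjusted p under 0.05, again with no share over all genes beside them. The direction was the same in every alternative in which each of the 12 could be fitted. For *Aldoa* the slope was 0.42 within KO and 0.09 without Montana and Oregon, and for *Gapdh* 0.28 and 0.10. A test for a difference of slopes between genotypes called no gene by edgeR. It gave 2 members, and 676 of 15413 genes (4.39%), at an unadjusted p under 0.05.

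*Hk2* had another high tumor. Its values in WT were 19.4 to 46.3 CPM in 7 tumors and 465 CPM in the hind limb tumor of N215, between the 383 CPM of Montana and the 565 CPM of Oregon. The muscle score of N215 was 8.56, but the N43 pelvis tumor, with a score of 9.12, had 36.9 CPM. N215 was also the highest WT tumor for *Tpi1*, *Gapdh*, *Pgk1*, *Ldha*, *Gpi1* and *Slc16a3*, which passed the muscle test. It was likewise the highest for *Pfkl*, *Eno1*, *Eno2*, *Slc2a1*, *Pdk1*, *Vegfa*, *Aldoc* and the *Aldoa* row ENSMUSG00000114515, which did not pass. Its osteoblast share was 0.548%, against 3.28% to 10.1% in the tumors of N42 and N43. The part of this low share in those values was not tested.

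The isoenzymes of each step were set side by side as shares of the family's counts per kilobase. The forms typical of muscle are *Pfkm*, *Pgam2* and *Eno3* for phosphofructokinase, phosphoglycerate mutase and enolase, none of them members. In Montana and Oregon, *Pfkm* made up 99.0% and 99.4% of phosphofructokinase, *Pgam2* 99.3% and 99.6% of the mutase and *Eno3* 98.9% and 99.3% of enolase. In the other 14 tumors these shares ran from 28.4% to 87.5%, from 0% to 76.5% and from 8.81% to 67.9%, and *Pgam2* reached 76.5% in N215 and 75.4% in the N43 pelvis tumor. *Hk2* held 95.3% and 96.2% of hexokinase in Montana and Oregon and 92.6% in N215, with 21.4% to 50.4% elsewhere. The members *Pgam1* and *Eno1* were thus a small part of their families where the muscle score was highest, at 0.707% and 0.391% for *Pgam1* and 1.00% and 0.653% for *Eno1*. Of 9 tested genes on a list of muscle-type glycolysis and glycogen isoforms, 7 passed with a positive slope, among them *Pgam2* (0.92, SE 0.09, adjusted p = 3.75e-06), *Eno3* (0.59, SE 0.05, adjusted p = 6.15e-07), the glycogen phosphorylase *Pygm* (0.63, SE 0.08, adjusted p = 7.64e-05) and the phosphorylase kinase subunit *Phkg1* (0.47, SE 0.10, adjusted p = 0.00635). That list was picked for muscle, so its count is a description. Of 47 other hypoxia targets, *Gys1* (glycogen synthase of muscle, also on the muscle-type list, slope 0.28, adjusted p = 0.000732) and *Ppp1r3c* (0.39, adjusted p = 0.0163) rose with the score, and *Hilpda*, a lipid droplet gene, fell (-0.17, adjusted p = 0.0140). Over all genes the share called was 4.92% in either direction.

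**Figure D4:**
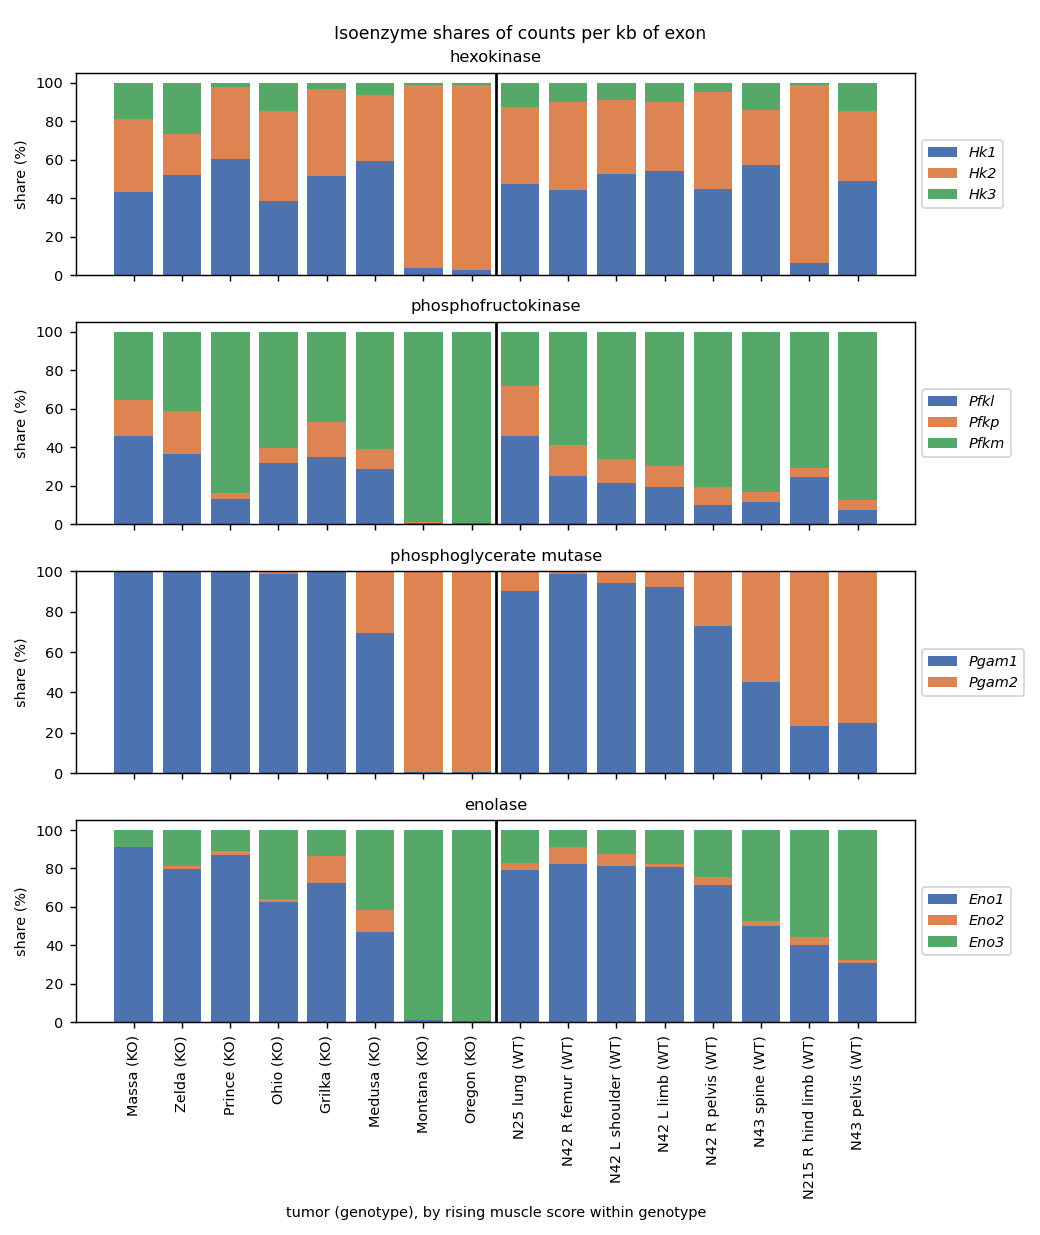
Stacked bars give the share (%) of each isoenzyme in the family's counts per kb of exon for every tumor, KO left and WT right of the line, by rising muscle score. *Pfkm*, *Pgam2* and *Eno3* fill nearly the whole bar in Montana and Oregon, and *Hk2* does so there and in N215.

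The genotype comparison was then repeated without Montana and Oregon. With all tumors, the 12 members with a positive muscle slope had a median log2 fold change of 0.89, with 11 above 0, and without these tumors it was -0.38, with 2 above 0. For the other 26 members the median was 0.07 with all tumors and 0.12 without them, and 15 were above 0 both times. In all, 11 of 38 members changed sign, 9 of them among the 12. These 12 were picked with the same tumors in the fit, so the split is a description. Without Montana and Oregon the single member of 38 that passed was *Pfkfb3*, which makes the activator of phosphofructokinase. The number of all genes called in this fit is given in the last section, without a share of the genes tested, so this call is a description. *Pfkfb3* fell in KO (log2 fold change -1.60, SE 0.32, adjusted p = 0.0232), while with all tumors it was -0.19 (adjusted p = 0.878). In the 6 remaining KO tumors *Pfkfb3* had 13.8 to 67.1 CPM, below the 73.97 to 186 CPM of the WT tumors. How many other genes stay apart in this way without Montana and Oregon was not counted. Most WT tumors came from N42 and N43, and this fit was not repeated with the mouse taken into account. With the muscle score as a covariate, *Pfkfb3* was at -0.51 (adjusted p = 0.343).

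**Figure D5:**
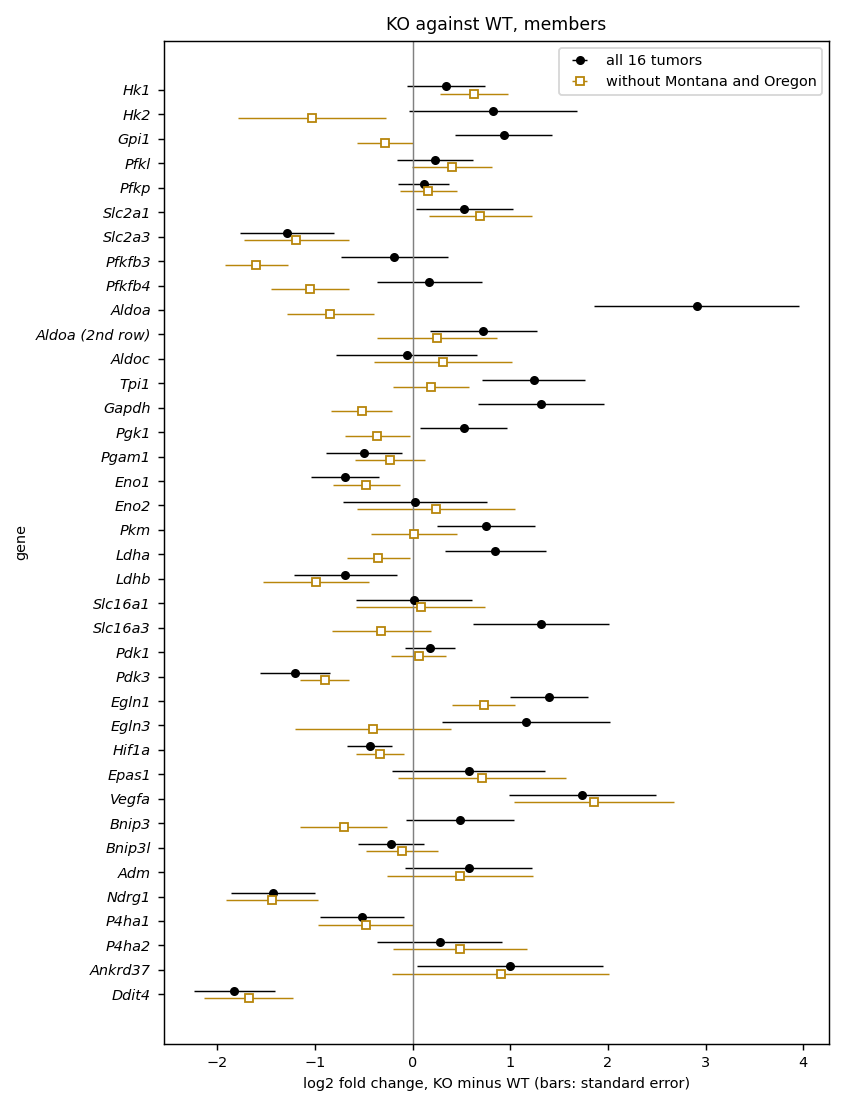
Log2 fold change of KO over WT for each member with its standard error, from all 16 tumors (filled circles) and without Montana and Oregon (open squares). *Aldoa* moves from 2.91 to -0.84 and *Gapdh* from 1.31 to -0.52, while *Ddit4* stays at -1.83 and -1.68.

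Some members were highest in tumors that held markers of another tissue. *Epas1* was highest in Massa (3169.5 CPM) and in the N25 lung tumor (1707 CPM), the tumors with most lung marker RNA, and at most 475 CPM elsewhere. It formed 97.4% and 94.2% of the HIF alpha family per kilobase there, against 34.3% to 89.3% in the other tumors. *Ldhb*, the lactate dehydrogenase subunit of oxidative tissues, was 162 CPM in N25 and 20.0 to 46.2 CPM in the other WT tumors, and made up 68.7% of lactate dehydrogenase per kilobase. The part of lung content in these values was not tested.

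Within WT, 3 spine and pelvis tumors were compared with 4 tumors of limb, hind limb, femur and shoulder, leaving out the lung tumor. No member of 37 tested passed by edgeR, and no gene of 17131 (0%). At an unadjusted p under 0.05 there were 2 members, against 3.74% of genes, and DESeq2 called no member and 31 genes. The members with an unadjusted p under 0.05 were *Pgam1*, at 20.1 ± 2.28 CPM in spine and pelvis (SD, n = 3) and 33.3 ± 9.54 CPM in limb and shoulder (SD, n = 4; log2 fold change -0.72, SE 0.27, adjusted p = 0.974), and *Bnip3*, at 62.2 ± 13.8 and 43.9 ± 5.90 CPM (0.52, SE 0.22, adjusted p = 0.974). These were named after their values were seen. Spine and pelvis tumors came from N42 and N43 and limb tumors from N42 and N215, so site and mouse are partly confounded.

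The members varied more between KO tumors than between WT tumors, as most genes did. The median SD of log2 CPM was 1.37 in KO, 0.65 in WT and 0.34 among the 4 tumors of N42, beside 1.11, 0.51 and 0.30 over all genes. The SD was larger in KO for 33 of 38 members (86.8%) and for 90.4% of all genes. The KO tumors came from 8 mice and the WT tumors from 4, and the shallow libraries Massa and Grilka were both KO. The SDs of the groups are therefore not like for like, and the part of these limits was not tested. *Hif1a*, *Ddit4*, *Ndrg1*, *Pfkl* and *Ankrd37* were the members with the larger SD in WT. Within N42 the most even member was *Ddit4*, with an SD of 0.02, and the least even was *Egln3*, with 1.38 and values from 1.87 CPM in the femur to 18.1 CPM in the pelvis. *Slc2a3* ranged from 19.1 CPM in the left limb to 83.7 CPM in the femur of the same mouse, and *Slc16a3* from 7.27 CPM in the femur to 34.1 CPM in the shoulder.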

How the data were processed

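RNA from 16 tumors was depleted of ribosomal RNA and sequenced from one end. The authors aligned the reads to mm10 with Novoalign 2.08.01, kept the best of several allowed alignments and counted reads per gene with USeq. The deposited values analyzed here are these raw counts. The authors used DESeq2 1.26.0, and no strand setting is given in the sources used here. Reads of near-identical copies and of overlapping genes can therefore be split between rows.

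Groups and mice were taken from the labels. The main test was edgeR 4.0.16 in R 4.3.3 (TMM, filterByExpr at its settings of 10 for the count and 15 for the total, quasi-likelihood F-test), with Benjamini-Hochberg adjustment over all tested genes, a threshold of 0.05 and two-sided p-values. SE is the log2 fold change divided by the square root of F. CPM scale each count by the TMM-normalized library of tested genes, and log2 CPM used a prior count of 2. Fits were checked on simulated counts. DESeq2 1.42.0 and limma 3.58.1 (voom, duplicateCorrelation) were alternatives. For 4976 genes an adjusted p was missing in DESeq2, and they do not enter counts of lost calls. Exon lengths came from GENCODE vM21 (GRCm38), where all 38 rows were found. Python 3.11.15 was used for sequences and figures.

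Named with full statistics were members past the threshold in a comparison, the 5 with the largest log2 fold change in each direction, the 5 most abundant, the 5 largest slopes in each direction, *Hif1a*, *Epas1* and *Bhlhe40*, and, of each other list, genes past the threshold (at most 6) or otherwise the 2 with the largest fold change. The members, the lists and the rule were chosen with earlier results of these data known. The labels give no batch or date, and no within-batch value can be given. A result that rests on a withheld item is not reported here.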

Additional observations from a re-analysis of the deposited data

Results flagged for a closer look

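Single tumors far from the rest of their group were looked for among 38 rows in each genotype, 76 groups of 8 tumors, by Dixon's test, which flags about 1 in 20 groups by chance. It flagged 6. In the WT hind limb tumor of N215, *Hk2* was at 465 CPM (next WT value 46.3), *Tpi1* at 223 CPM (next 93.4) and the *Aldoa* row ENSMUSG00000114515 at 2.61 CPM (next 0.909). In the WT lung tumor of N25, *Ldhb* was at 162 CPM (next 46.2) and *Egln1* at 39.8 CPM (next 31.7). In the KO tumor Massa, *Epas1* was at 3169.5 CPM (next 475). No member's muscle slope differed between genotypes after adjustment.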

How the results depend on the processing

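No paired analysis was possible because KO and WT share no mice and replicate numbers only name the tumors. Of 38 members, the KO and WT comparison called 1, and it called 618 of all genes. By setting, members and genes called were 5 and 2517 with DESeq2, 0 and 10 with counts summed per mouse, 0 and 17 with the mouse as a random effect, 0 and 8 without N42, 2 and 903 without N25, 3 and 1019 with the muscle score as a covariate, 1 and 372 without Montana and Oregon, 0 and 7 with structural RNA as a covariate, and 2 and 1111 without Massa and N25. Leaving out 1 tumor gave from 0 members (the N42 shoulder tumor left out) to 4 (Zelda left out) and 252 to 1348 genes. Higher calls were 287 of 618 with TMM, 335 of 628 with DESeq2 size factors and 1559 of 2517 with DESeq2. For the muscle slope, 12 members and 758 genes were called. Without Montana and Oregon it was 0 and 150, within WT 0 and 24, within KO 6 and 77, without Massa and Grilka 7 members, and without a filter on low counts 2252 genes. Leaving out 1 tumor gave 4 (without Oregon) to 13 members and 358 to 1014 genes, with 6 members and 421 genes without Montana. In the site comparison, leaving out 1 tumor gave 0 members and 0 genes, and DESeq2 called 31 genes. Alternatives with Massa, Grilka and N25 left out in combination and the slopes within a genotype were chosen after seeing the data.

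Directions that turned among the genes followed through the alternatives are given as log2 fold changes. Without Montana and Oregon these were *Aldoa* -0.84, *Gapdh* -0.52, *Slc16a3* -0.32, *Bhlhe40* -0.24, *Pgam2* -4.39, *Eno3* -1.57, *Phkg1* -0.71, *Pygm* -3.01 and *Hif1an* -0.014, and, among members not otherwise followed in this comparison, *Hk2* -1.03, *Gpi1* -0.28, *Aldoc* 0.31, *Pgk1* -0.36, *Ldha* -0.35, *Pfkfb4* -1.05, *Bnip3* -0.71 and *Egln3* -0.40. With DESeq2 they were *Aldoa* -0.63, *Eno3* -0.67 and *Pygm* -1.49, where it replaced the counts of Montana and Oregon as outliers, and for *Eno3* and *Pygm* also those of N215. With the mouse as a random effect they were *Epas1* -0.0058, *Bhlhe40* -0.22, *Pgam2* -1.77 and *Pygm* -0.55. Without N42 they were *Epas1* -0.047 and *Arnt2* -0.069. With structural RNA as a covariate they were *Pkm* -0.18, *Epas1* -1.07, *Bhlhe40* -0.47 and *Arnt2* -0.43. *Epas1* was -0.79 without Massa and Grilka and, with 1 tumor left out, ran from -0.80 (without Massa) to 1.48 (without N25). *Bhlhe40* was -0.0032 with no filter and ran from -0.093 to 0.22 with 1 tumor left out, being below 0 without Montana, Prince, Grilka, Oregon or the N43 spine tumor. Of slopes, *P4ha2* was 0.062 without Massa and Grilka and ran from -0.13 to 0.023 with 1 tumor left out, above 0 without Massa. *Pdk3* was 0.0033 without Montana and Oregon and 0.0062 within WT, where *Aldoc* was 0.015 and *Hk1* 0.013. The median log2 fold change over all genes was 0.10, 0.19 with DESeq2 and -0.06 with the mouse as a random effect. Apart from the DESeq2 replacements, the cause was not tested. Low depth limits *Eno2*, *Egln3*, *Adm*, *Aldoc* and *Ankrd37* most in Massa and Grilka.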
